A study of Mus musculus with 4 samples.

Results

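The genes described here make cholesterol from acetyl-CoA, sense it, move it inside the cell and pump it out, and were followed in mouse liver on 4 microarrays. A list of 34 genes was drawn up by function, with earlier results of these data known. A gene's probes were taken as the non-control probes whose transcript accession belongs to that gene in RefSeq. Of the 34 genes, 33 had a probe, out of 23462 genes named on the array in all, and those 33 had 56 probes between them. Acat2, a cytosolic thiolase at the head of the pathway, had no probe named for it.

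Each array held RNA of whole liver from male mice, 1 array per group. Control mice had aged naturally. The diabetic group was a type 2 diabetes model in aged mice. The metformin group was the same aged diabetic model given metformin, a glucose-lowering biguanide. The combination group was the aged diabetic model given metformin together with astragalus polysaccharide, a carbohydrate fraction of Astragalus root. All 4 sample titles carry 60 d without saying what the time counts from, and no group received astragalus polysaccharide alone. Strain, exact age, the way diabetes was induced, doses and any pooling of mice are not given in these sources. With 1 array per group every difference below is one between single arrays, and no statistical test was possible.

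Cholesterol synthesis starts with the mevalonate arm, which turns acetyl-CoA into farnesyl pyrophosphate, and goes on from squalene through lanosterol to cholesterol. When sterols in the endoplasmic reticulum run low, SCAP escorts the transcription factor SREBP2, encoded by Srebf2, to the Golgi for cleavage, and the freed factor switches on nearly every enzyme gene of the route. When sterols are plentiful, the INSIG proteins hold SCAP and SREBP2 in the endoplasmic reticulum. Oxysterols work through the nuclear receptor LXR, of which Nr1h3 encodes the alpha form, and LXR raises the exporters ABCA1, ABCG5 and ABCG8 and the E3 ligase encoded by Mylip. In liver the pair ABCG5 and ABCG8 sends cholesterol into bile, and the acyltransferases encoded by Soat1 and Soat2 store it as cholesteryl ester.

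Levels are log2 processed signals relative to each array's 75th percentile over the 51780 probes that carried no outlier mark on any array, so 0 is that percentile. A level is compared only with the same gene's level on another array. The scanner software's own error on a difference between arrays had a median of 0.16 in log2 for a probe, and repeated spots of a probe gave an SD of 0.08 to 0.09. Different probes of a gene gave differences with a median SD of 0.19 to 0.24. None of these covers the spread between mice, which was not measured. Spots marked as outliers were left out, which removed some values of 12 of the 56 probes.

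Marker genes of other cell types differed between the same arrays. Over 7 hepatocyte markers measured on all arrays, the summed level on a linear scale ran from 185 on the metformin array to 309 on the control array, with 246 on the diabetic and 259 on the combination array. Over 6 lymphocyte markers it was 5.06 in control, 1.27 in diabetic, 8.84 in metformin and 2.67 in combination liver. Of the 8 listed, 2, Cd79a among them, had no value above background on any array. Markers of proliferating cells, 4 measured on all arrays, summed to 6.49, 0.872, 18.8 and 10.9 in the same order. Stellate cell and fibroblast markers, 6 on all arrays, summed to 48.1, 25.1, 48.4 and 36.1, and Kupffer cell markers, 8 on all arrays, to 105, 62.8, 79.9 and 52.9. The 7 endothelial markers summed to 34.8, 21.9, 32.4 and 30.9, the 4 erythroid ones to 50.3, 27.1, 33.1 and 36.8, and the 4 pancreatic acinar ones to 87.2, 20.5, 27.2 and 11.7. In whole liver, fewer cells of a type and less RNA per cell cannot be told apart. The part of these shifts in the results below was not tested.

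Most promoters of the synthesis enzymes held the same short sequence. RefSeq promoter windows of GRCm38.p6 were at hand for 28 of the 34 genes, and the 250 bases before the start site were searched on both strands for 3 motifs. CCAAT, the box bound by NF-Y, a factor that works beside SREBP2 at many sterol genes, was found in a window of 23 of the 28 genes (82.1%), some of which have several, against 37.5% of 27025 genes. Among the enzymes it was found in 16 of 17. TCACNCCAC, a core of the sterol regulatory element, was found in Hmgcs1 alone, against 1.22% of all genes. The LXR element DR4, a pair of AGGTCA runs in the same direction with 4 bases between, was found in none of the 28 and in 0.0148% of all genes. The matches did not overlap one another in the stretches printed here. A match is a run of letters and not a shown binding site, and a window without one says nothing of the factor.

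The stretches below are the 150 bases that end at the start site, written 5′ to 3′ on the gene's strand with CCAAT (or its reverse, ATTGG) and the sterol element in capitals. Hmgcs1 is shown for its sterol element at chr13:119690201-119690350, on the plus strand. Cyp51 (chr5:4104698-4104847, minus strand), Msmo1 (chr8:64733579-64733728, minus strand) and Nsdhl (chrX:72918371-72918520, plus strand) are shown as synthesis genes with differences of at least 2-fold below. Srebf2 (chr15:82147119-82147268, plus strand) is the pathway's own regulator. The last line is the whole of the 109 bases between the start sites of Abcg5 and Abcg8 (chr17:84683012-84683120, plus strand). These genes are transcribed away from each other. The stretch itself holds none of the 3 motifs. Abcg8 has CCAAT beyond it, at -175 to -171 and at -114 to -110 from its start site.
Hmgcs1: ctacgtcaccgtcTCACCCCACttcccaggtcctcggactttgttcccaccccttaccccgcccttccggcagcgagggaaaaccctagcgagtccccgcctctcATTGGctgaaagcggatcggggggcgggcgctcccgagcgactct
Cyp51: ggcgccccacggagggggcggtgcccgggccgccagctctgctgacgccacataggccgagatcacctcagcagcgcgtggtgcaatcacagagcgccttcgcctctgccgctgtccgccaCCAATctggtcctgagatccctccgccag
Msmo1: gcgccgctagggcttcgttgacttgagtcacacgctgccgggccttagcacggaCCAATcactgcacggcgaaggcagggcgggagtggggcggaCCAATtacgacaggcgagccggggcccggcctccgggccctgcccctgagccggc
Nsdhl: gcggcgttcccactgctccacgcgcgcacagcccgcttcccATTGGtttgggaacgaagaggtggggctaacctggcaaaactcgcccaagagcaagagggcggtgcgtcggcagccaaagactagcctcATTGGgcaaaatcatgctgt
Srebf2: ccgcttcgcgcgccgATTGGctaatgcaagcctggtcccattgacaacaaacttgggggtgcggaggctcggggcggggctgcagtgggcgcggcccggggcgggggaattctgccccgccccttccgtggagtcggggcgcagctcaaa
Abcg5-Abcg8: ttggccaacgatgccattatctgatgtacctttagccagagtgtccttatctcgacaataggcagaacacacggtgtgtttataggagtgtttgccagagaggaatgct

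**Figure D1:**
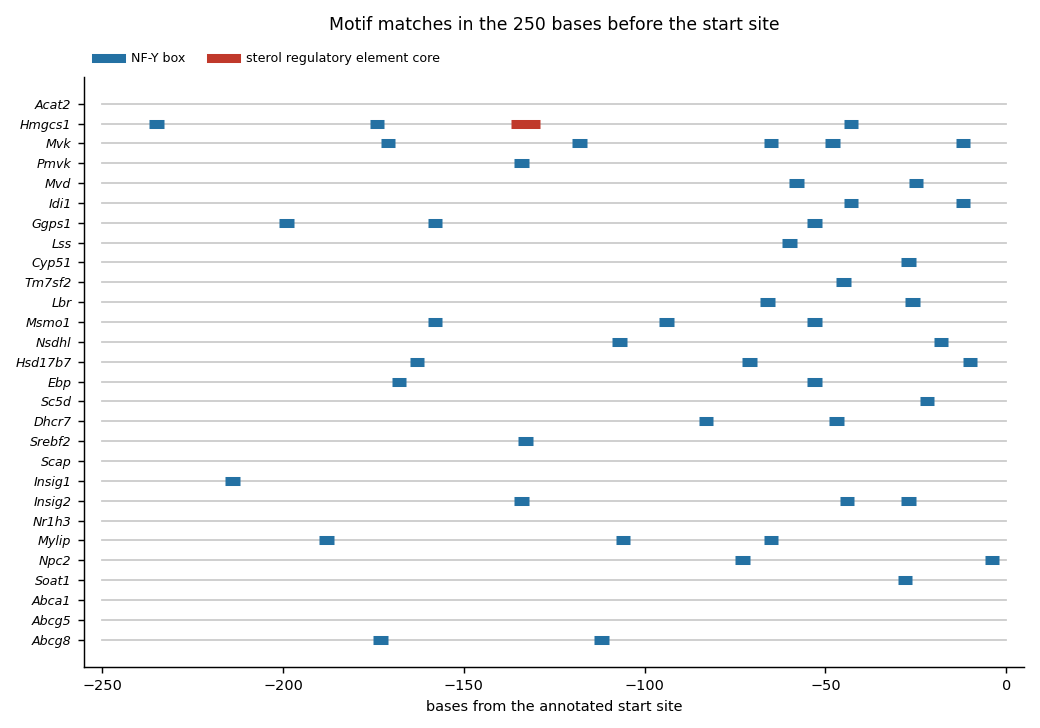
Positions of CCAAT on either strand (blue) and of the sterol regulatory element core (red) in the 250 bases before the start site of the 28 genes with a RefSeq window (for a gene with several, the one with most matches), in bases from the start site. Of the 28 rows, 23 carry a blue box and the row of Hmgcs1 alone carries a red one.

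In outline, most synthesis enzymes were lower on the diabetic array than on the control array and higher on both treated arrays than on the diabetic array. Sqle and Cyp51 showed the largest steps of the members measured in both treated comparisons. The exporters Abcg5 and Abcg8 were near the control level on the combination array and lower on the metformin array. So was the sterol carrier gene Stard4, on its 1 probe with an unmarked control value. The size of the step from control to metformin depended on the processing. Over 11 alternatives it reached as high as -0.17 for Abcg5, 0.01 for Abcg8 and -0.06 for Stard4. Hepatocyte markers were also lower than control on the metformin array, with a median of -0.77 and 8 of 8 lower. On the combination array their median was -0.26, with 6 of 7 lower. Values are given first by the place of each gene in the pathway, and then counts for each comparison.

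In the mevalonate arm, Hmgcs1, which makes HMG-CoA, stood at 4.11 in control, 4.16 in diabetic, 4.82 in metformin and 4.86 in combination liver. Control and diabetic lay 0.05 apart, within the error of a difference, and both treated arrays lay above them, by 0.66 and 0.70 from the diabetic array. Mvk, mevalonate kinase, averaged 1.10, 0.78, 1.64 and 1.45 over 2 probes in the same array order. Its metformin array was 0.86 and its combination array 0.67 above the diabetic array, with both probes higher each time. Pmvk, the next kinase, averaged 3.45, 2.94, 3.60 and 3.52 over 2 probes. The diabetic array was thus the low one, by 0.51 from control, and the other arrays lay within 0.14 of the control level.

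Mvd, which decarboxylates mevalonate pyrophosphate to isopentenyl pyrophosphate, followed a different course from its neighbours in the route. Its levels were -0.32 in control, 0.79 in diabetic, 1.12 in metformin and 0.16 in combination liver. It was 2.15-fold higher on the diabetic than on the control array and 2.71-fold higher on the metformin than on the control array. From metformin to combination it was 1.95-fold lower (-0.97). Only 1 probe reports this gene.

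Fdps, which makes farnesyl pyrophosphate, stood at 4.67 in control, 4.00 in diabetic, 4.49 in metformin and 4.68 in combination liver. The diabetic array was 0.67 below control, and the combination array was back at the control level (0.01 apart). Idi1, an isomerase of isopentenyl pyrophosphate, had an outlier spot on the diabetic array and stood at 3.26, 3.58 and 3.55 on the control, metformin and combination arrays. Ggps1, which makes geranylgeranyl pyrophosphate for protein prenylation and so leaves the cholesterol route, averaged -0.40, -0.34, 0.02 and 0.09 over 5 probes from control to diabetic, metformin and combination. The 5 probes differed from control by -0.53 to 0.56 on the diabetic array, so the mean of 0.06 hides probes that disagree.

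From squalene onward the steps were larger. Sqle, which makes squalene epoxide and is a rate-limiting enzyme of this stretch of the route, stood at 1.14 in control, 0.13 in diabetic, 2.78 in metformin and 2.44 in combination liver. The diabetic array was 2.01-fold below control, and the metformin and combination arrays were 6.27-fold and 4.97-fold above the diabetic array. Both treated arrays also lay above control, by 3.12-fold and 2.47-fold. In these 4 comparisons of a treated array Sqle had the highest difference of any measured member, and 1 probe reports it.

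Cyp51, the lanosterol demethylase, has 2 probes that went the same way. The brighter one stood at 2.75 in control, 2.01 in diabetic, 3.87 in metformin and 3.59 in combination liver. The dimmer one stood at -1.56, -2.97, -0.15 and -0.50 in that order. Their mean difference was -1.07 from control to diabetic (2.10-fold lower), 2.34 from diabetic to metformin (5.07-fold higher) and 2.03 from diabetic to combination (4.08-fold higher). The dimmer probe gave the larger step each time.

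Msmo1, which oxidises methyl groups of the sterol after Cyp51 has acted, has a probe at 3.76 on the control, 3.37 on the diabetic and 4.39 on each of the metformin and combination arrays. A second probe stood at 1.52, 0.63 and 2.34 on the control, diabetic and metformin arrays and had an outlier spot on the combination array. The metformin array was 2.58-fold above the diabetic array over both probes, and the combination array was 2.03-fold above it on the first probe alone. Nsdhl, which acts after Msmo1, had an outlier spot on the diabetic array. It stood at 2.14 in control, 3.40 in metformin and 2.96 in combination liver, so it was 2.40-fold and 1.76-fold above control on the treated arrays.

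**Figure D2:**
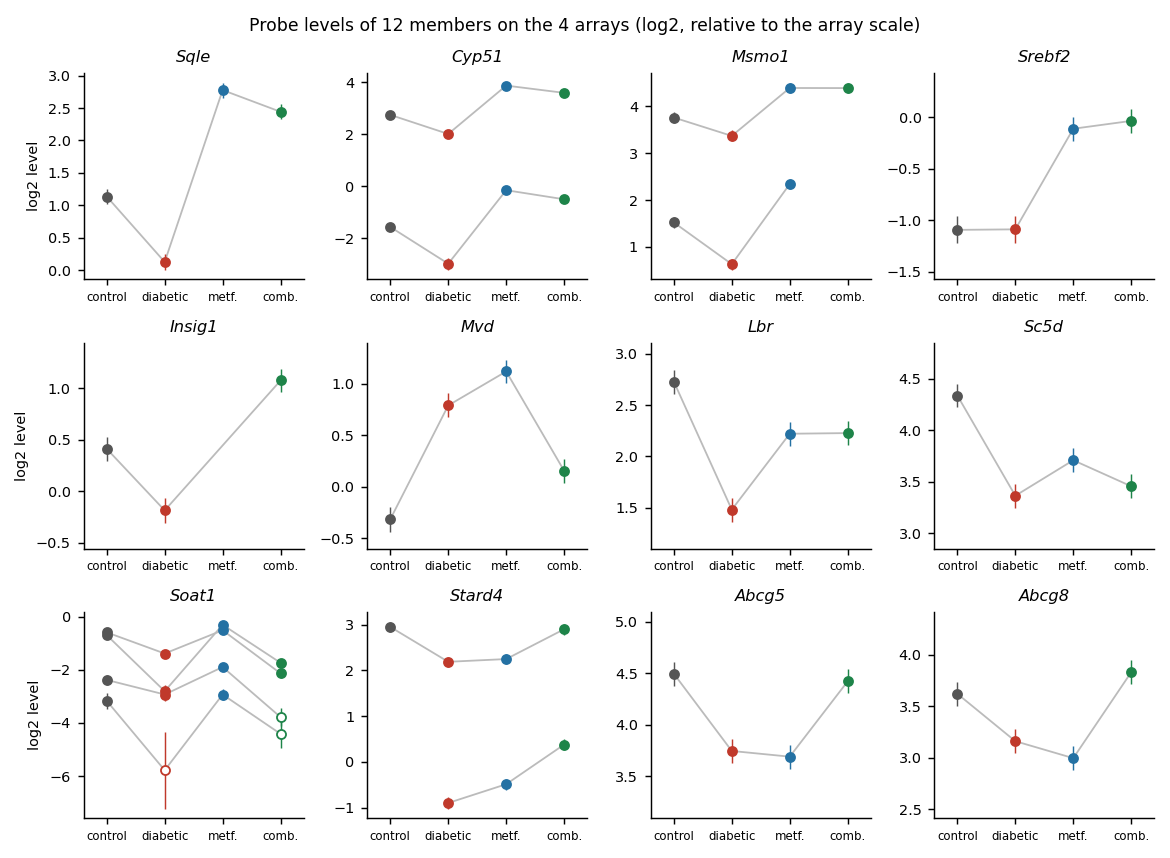
Level of each probe (log2, relative to the array's 75th percentile) of 12 members on each of the 4 arrays. Bars are the scanner software's error for that array, open points are not above background, points of outlier spots are left out, and lines join the same probe. Sqle and both Cyp51 probes are lowest on the diabetic array and higher on both treated arrays than on control, while Abcg5 and Abcg8 are within 0.21 of control on the combination array.

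Fdft1, squalene synthase, stood at 3.72 in control, 3.16 in diabetic, 3.77 in metformin and 3.99 in combination liver. Tm7sf2, a sterol C14 reductase, averaged 3.62, 2.85, 3.77 and 3.83 over 2 probes. For both genes the diabetic array was low and the others lay at or above control. Lss, lanosterol synthase, stood at 2.99 in control, 2.21 in diabetic and 3.13 in combination liver on the probe measured on all arrays, with metformin 0.02 above control. Its mean difference over the probes measured on both arrays was -0.48 from control to diabetic (2 probes). From control to metformin that mean was 0.36, over 2 probes at 0.02 and 0.70. The mean was 0.99 from diabetic to metformin (3 probes) and 0.92 from diabetic to combination (1 probe). Dhcr7, the last enzyme of the Kandutsch-Russell branch, stood at 2.04, 1.64, 2.37 and 1.94, so only the metformin array lay above control, by 0.34.

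Lbr, Sc5d and Ebp were the synthesis genes that lay below control on every other array. Lbr encodes a protein of the inner nuclear membrane that is also a sterol C14 reductase, the activity it shares with Tm7sf2. It stood at 2.73 in control, 1.48 in diabetic, 2.22 in metformin and 2.23 in combination liver. The diabetic array was 2.37-fold below control, and both treated arrays lay 0.74 above diabetic and about 0.50 below control. Sc5d, lathosterol oxidase, stood at 4.34, 3.36, 3.71 and 3.46, with the diabetic array 1.96-fold below control and the combination array 1.84-fold below it. On a scale set by spike-in probes the metformin values of Lbr and Sc5d turned to 0.13 and 0.01 above control.

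Ebp, a sterol isomerase, averaged 4.95 in control, 4.45 in diabetic, 3.99 in metformin and 4.57 in combination liver over 2 probes that went the same way. It was the only measured enzyme lower on the metformin than on the diabetic array, by 0.46. Hsd17b7, a sterol ketone reductase, averaged 2.00, 2.17, 2.50 and 2.40 over 2 probes, lowest in control, with diabetic above it by 0.17, about the error of a difference.

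Among the sterol sensors, Srebf2 stood at -1.09 in control, -1.09 in diabetic, -0.11 in metformin and -0.03 in combination liver. Both treated arrays lay above both others, by 0.98 and 1.05 from the diabetic array, and 1 probe reports this gene. Insig1, itself a target of SREBP2 and a brake on it, stood at 0.41 on the control, -0.19 on the diabetic and 1.08 on the combination array, and had an outlier spot on the metformin array. The combination array was 2.40-fold above the diabetic array. Insig2, the form kept up by other signals in liver, stood at 4.22, 3.65, 3.95 and 4.49 from control to diabetic, metformin and combination, on the 1 probe measured throughout. Its 2 other probes carried outlier marks on all but the combination array and placed metformin above control.

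Scap stood at 4.20 in control, 4.32 in diabetic, 3.75 in metformin and 4.23 in combination liver, and only the metformin array was low. Over 11 processing alternatives its difference from control on the metformin array ran from -0.60 to 0.19. Nr1h3 averaged 3.54, 3.23, 3.23 and 2.78 over 2 probes in that order. Its combination array was the low one, 1.69-fold below control, with the probes at -0.50 and -1.02. Mylip, the LXR target whose ligase degrades lipoprotein receptors, stood at 1.65 in control and in diabetic liver, 2.24 in metformin and 2.35 in combination liver. Like Srebf2, it was at the same level on control and diabetic and higher on both treated arrays, by 0.60 and 0.70.

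Of the genes for transfer and storage, Stard4, a soluble carrier that moves sterol between membranes, stood at 2.95 in control, 2.19 in diabetic, 2.25 in metformin and 2.90 in combination liver. Diabetic and metformin lay low together, and control and combination lay high. A second Stard4 probe, without a control value, stood at -0.90, -0.49 and 0.38 in diabetic, metformin and combination liver. Over both probes the combination array was 1.99-fold above the diabetic array.

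Npc1 and Npc2 encode the proteins that pass cholesterol out of late endosomes and lysosomes. Npc1 stood at 4.10 in control, 4.04 in diabetic, 3.69 in metformin and 4.18 in combination liver, with the metformin array low by 0.41 from control. That difference ran from -0.56 to 0.23 over the 11 processing alternatives. Npc2 stood at 4.24, 3.85, 3.93 and 4.18, and the combination array was again within 0.08 of control for both genes. Soat2, the esterifying enzyme of hepatocytes, stood at 1.12 in control, 0.12 in diabetic, 0.43 in metformin and 0.12 in combination liver. It was thus 2.01-fold below control on the diabetic and on the combination array alike.

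Soat1, the acyltransferase found in most cell types and abundant in macrophages, was dim, and its 4 probes did not give one picture. Measured on all arrays, 1 probe stood at -0.59 in control, -1.39 in diabetic, -0.51 in metformin and -2.14 in combination liver. Another stood at -0.69, -2.80, -0.31 and -1.74. From diabetic to combination the probes gave -0.75 and 1.07, so their mean of 0.16 describes neither. From metformin to combination both were lower (-1.63 and -1.43, a mean of 2.89-fold lower), and from control to diabetic 3 probes gave -0.55 to -2.11. The Kupffer cell markers, whose cells carry this gene, had a median difference of -0.74 from control to diabetic, 0.56 from diabetic to metformin and -0.69 from metformin to combination. From diabetic to metformin they went both ways, 6 higher and 3 lower, from -1.90 (Cd163) to 2.63 (Folr2). Their part in the Soat1 values was not tested.

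For the exporters, Abcg5 stood at 4.50 in control, 3.75 in diabetic, 3.69 in metformin and 4.42 in combination liver. Abcg8, its partner in the heterodimer, stood at 3.62 in control, 3.16 in diabetic and 3.83 in combination liver, with metformin lowest at -0.63 from control. For both genes the diabetic and metformin arrays were low, and the combination array lay near control (-0.07 for Abcg5 and 0.21 for Abcg8). Over the 11 processing alternatives the metformin difference from control ran from -0.96 to -0.17 for Abcg5 and from -0.78 to 0.01 for Abcg8. Abca1, which loads cholesterol onto apolipoprotein A-I, had an outlier spot on the control array and stood at 3.90 in diabetic, 3.38 in metformin and 3.68 in combination liver. Its second probe was above background on none of the 4. Hepatocyte markers, whose cells carry Abcg5 and Abcg8, had medians of -0.42 from control to diabetic and -0.77 from control to metformin over 8 measured. Their median was -0.26 from control to combination and 0.47 from metformin to combination, over 7 measured. Their part in these values was not tested.

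**Figure D3:**
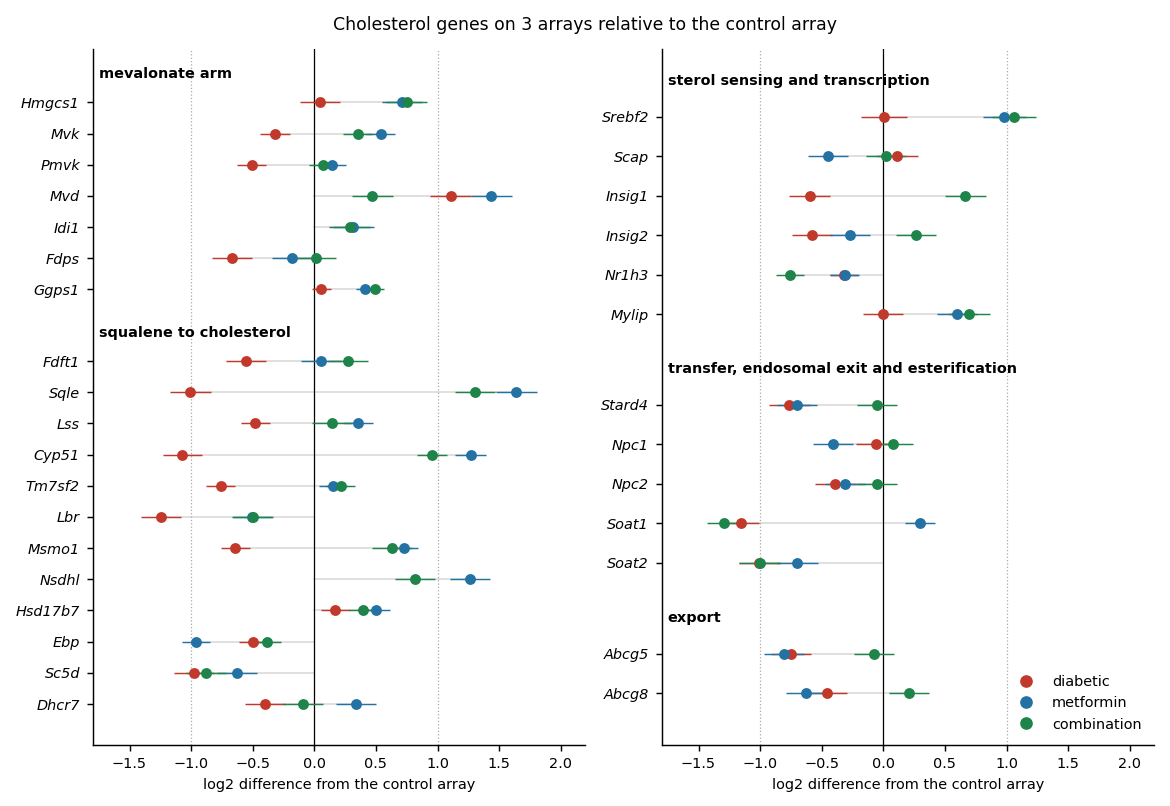
Difference of the diabetic (red), metformin (blue) and combination (green) arrays from the control array, in log2, for each member with a control value, by place in the pathway. Insig1 lacks a metformin value and Idi1 and Nsdhl a diabetic one. Bars are the scanner software's error of the difference, dotted lines mark 2-fold, and the arrays share 1 control. Sqle and Cyp51 lie left of 0 on the diabetic array and right of it on both treated arrays. Lbr, Ebp, Sc5d and Soat2 are among the genes that lie left of 0 on all 3.

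The diabetic and control arrays were compared first. Of 30 measured members 24 were lower on the diabetic array and 6 higher, with a median of -0.50 beside -0.11 over all 13475 genes measured. At least 2-fold lower were 5 members (16.7%; Lbr, Soat1, Cyp51, Sqle and Soat2), beside 5.69% of all genes. At least 2-fold higher was 1 member, Mvd, beside 5.97% of all genes, after which Hsd17b7 (0.17), Scap (0.11) and Ggps1 (0.06) were the highest. The 11 measured genes of the squalene branch had a median of -0.64 with 10 lower, the 5 genes of transfer and storage -0.76 with 5 lower, the 6 of the mevalonate arm -0.14 with 3 lower, and the 6 sterol sensors -0.16 with 4 lower. Abcg5 and Abcg8 were at -0.75 and -0.46. With a threshold of 1.5-fold, 12 members were lower beside 14.8% of all genes, and Mvd alone was higher beside 13.3%.

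This count depends on the scale. On a scale set by 6 spike-in probes no member was 2-fold lower and the median of the members was -0.25, while that of all genes moved to 0.14 and the all-gene split from 805 higher and 767 lower to 1327 and 472. The medians of the mevalonate arm and of the sensors turned to 0.12 and 0.10 on that scale. Of the 24 lower members, 22 stayed lower in all 11 processing alternatives tried, and the members' median lay 0.34 to 0.40 below that of all genes in each. Mvd stayed at least 2-fold higher in all 11.

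The metformin and diabetic groups differ, by label, in metformin treatment of the diabetic model, again with 1 array each. The synthesis enzymes were higher on the metformin array in 16 of 17 cases, Ebp being the other, with a median of 0.66, and each of the 17 kept its direction in all 11 alternatives. Over 30 measured members the median was 0.42 beside -0.11 for 13900 genes, with 24 higher. At least 2-fold higher were 4 members (13.3%), Sqle, Cyp51, Soat1 and Msmo1, beside 8.82% of all genes, and none was 2-fold lower, beside 3.54%. With a threshold of 1.5-fold, 14 members were higher beside 16.2% and none lower beside 11.9%. The lowest were Scap (-0.56), Abca1 (-0.51), Ebp (-0.46) and Npc1 (-0.35). Hepatocyte markers lay from -0.53 to -0.28 in this comparison, with a median of -0.39 and all 8 measured lower. Their part in the members' values was not tested. By group the median was 0.74 for the squalene branch, 0.57 for the mevalonate arm, 0.31 for the sensors, 0.24 for transfer and storage and -0.16 for the 3 exporters. The exporters' median turned to 0.22 on the spike-in scale, where 12 members were at least 2-fold higher and all genes split 2163 to 200 in place of 1226 to 492.

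**Figure D4:**
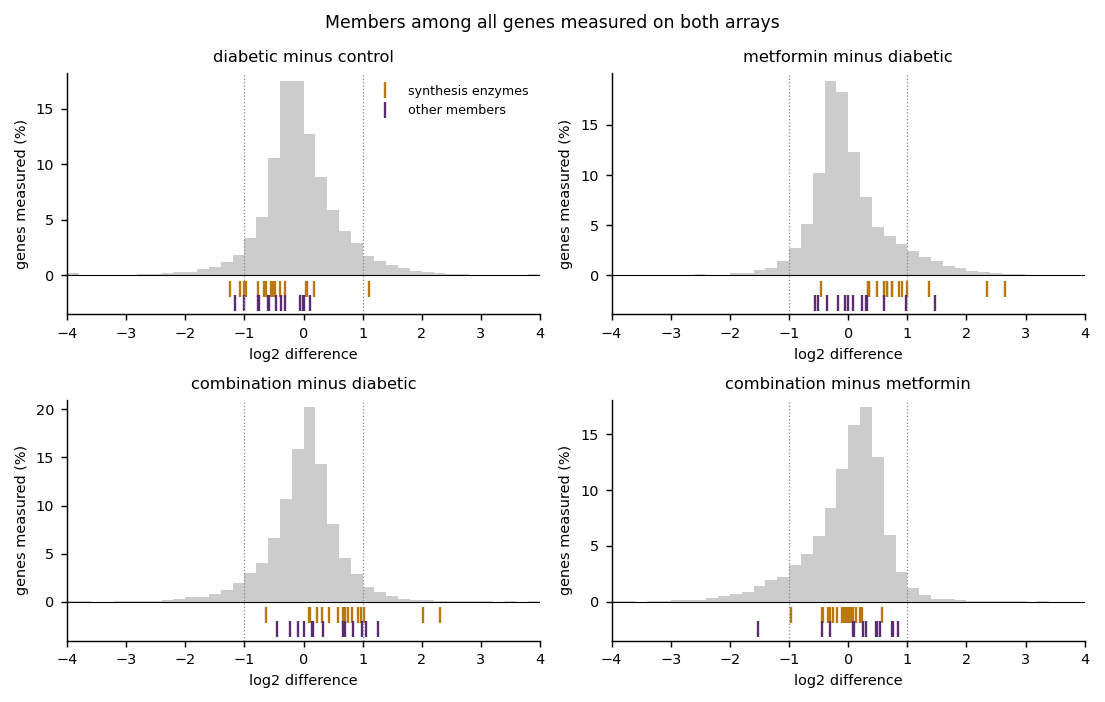
Histograms of the log2 difference over all genes measured on both arrays (grey, % of genes) in 4 comparisons, with a tick for each synthesis enzyme (orange) and each other member (purple), and dotted lines at 2-fold. The enzymes lie mostly left of 0 for diabetic minus control and right of 0 for both treated arrays minus diabetic. They straddle 0 for combination minus metformin, and the comparisons share arrays.

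The combination and diabetic arrays were set side by side next. Again 16 of 17 enzymes were higher than on the diabetic array, here with Mvd as the other (-0.64), and the enzymes' median was 0.68. In all 11 alternatives 13 of the 16 stayed higher, while Hsd17b7, Ebp and Sc5d reached -0.01, -0.12 and -0.15 in at least 1 of them. Of 31 measured members 27 were higher, with a median of 0.67 beside 0.04 over 14108 genes. At least 2-fold higher were 5 members (16.1%), Sqle, Cyp51, Insig1, Srebf2 and Msmo1, beside 3.98% of all genes, and none was 2-fold lower, beside 5.79%. With a threshold of 1.5-fold, 17 were higher beside 11.8%, and Mvd alone was lower beside 13.1%. After Mvd, the lowest were Nr1h3 (-0.44), Abca1 (-0.22) and Scap (-0.09). The group medians were 0.83 for the squalene branch, 0.77 for the sensors, 0.67 for the exporters, 0.63 for the mevalonate arm and 0.16 for transfer and storage. The last turned to -0.08 with each array's own 75th percentile. Sqle, Cyp51 and Insig1 stayed past 2-fold in every alternative that measured them, and Srebf2 in 9 of 11 and Msmo1 in 6 of 11.

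By label, the combination and metformin groups differ by the astragalus polysaccharide. With 1 array each, its part cannot be told apart from differences between mice. Across the 32 measured members the median was 0.05 beside 0.10 over 14363 genes, so the list as a whole lay near all genes. At least 2-fold lower was Soat1 alone, beside 8.72% of all genes, and none was 2-fold higher, beside 2.62%. With a threshold of 1.5-fold, Abcg8, Stard4 and Abcg5 were higher beside 11.8% (3 of 32), and Soat1 and Mvd lower beside 16.6% (2 of 32). The 19 measured enzymes had a median of -0.03 and lay between -0.97 (Mvd) and 0.58 (Ebp), with Nsdhl at -0.45, Sqle at -0.33 and Cyp51 at -0.31. The exporters had the highest median of the groups, with Abcg8 at 0.84, Abcg5 at 0.73 and Abca1 at 0.29, and Stard4 was at 0.76. Abca1 reached -0.11 in the alternatives. Hepatocyte markers lay from 0.22 to 0.80 in this comparison, with a median of 0.47 and all 7 measured higher. Their part in these values was not tested. Insig2 was at 0.54, Npc1 at 0.49 and Scap at 0.47, while Nr1h3 was at -0.44.

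This comparison also depends on the scale. The median of all genes moved from 0.10 to -0.30 on the spike-in scale, that of the members to -0.35, and all genes split 119 higher to 2345 lower in place of 376 to 1253. The exporters' median of 0.73 stayed between 0.33 and 0.83 in the 11 alternatives, and the enzymes' ran from -0.44 to 0.06. Among all 32 members 17 kept their direction throughout, 7 of them higher and 10 lower. Soat1 stayed at least 2-fold lower in 11 of 11, and Mvd passed 2-fold in 6 of 11.

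**Figure D5:**
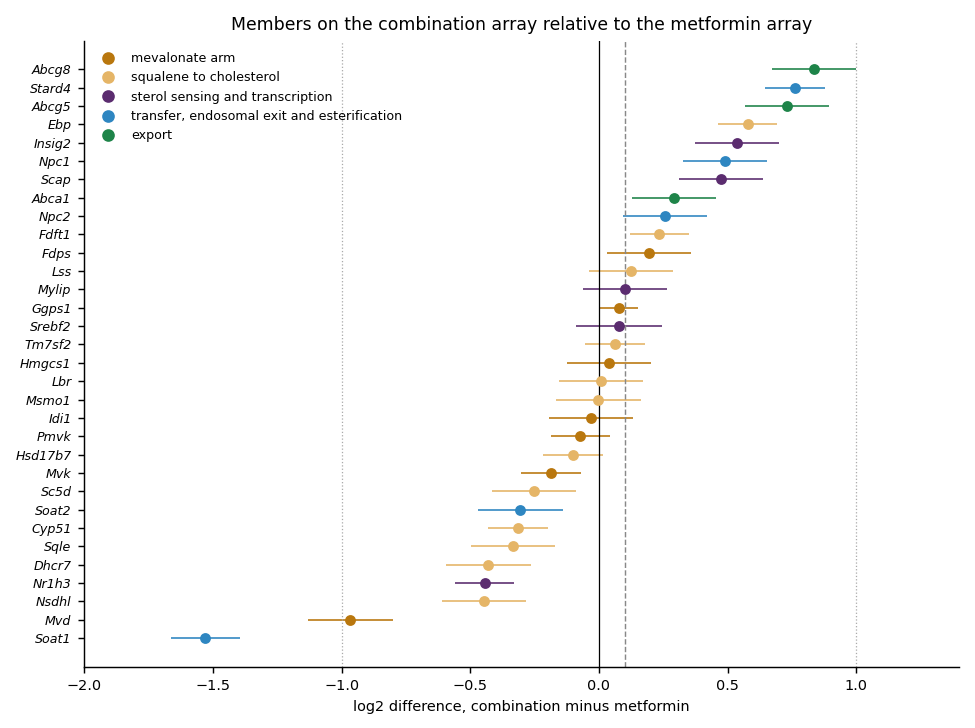
Difference of the combination array from the metformin array in log2 for the 32 measured members, coloured by place in the pathway and ordered by value. Bars are the scanner software's error of the difference, dotted lines mark 2-fold and the dashed line is the median of all genes, 0.10. Abcg8, Stard4 and Abcg5 are at the top and Mvd and Soat1 at the bottom.

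Both treated arrays were also compared with control. On the metformin array 4 of 31 measured members were at least 2-fold higher than control, Sqle, Mvd, Cyp51 and Nsdhl, beside 8.09% of 13506 genes, and none was 2-fold lower, beside 5.72%. With a threshold of 1.5-fold, 8 were higher beside 15.5% and 6 lower beside 21.2%. Lowest were Ebp (-0.96), Abcg5 (-0.81), Stard4 (-0.70) and Soat2 (-0.70). The members' median was 0.15 beside -0.19 for all genes, with the enzymes at 0.36 and the 2 measured exporters at -0.72, which ran from -0.87 to -0.08 over the alternatives. On the spike-in scale 11 members were 2-fold higher and all genes split 3008 to 207 in place of 1093 to 773.

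On the combination array 2 of 32 members were at least 2-fold higher than control, Sqle and Srebf2, beside 4.6% of 13845 genes, followed by Cyp51 (0.95) and Nsdhl (0.81). Soat1 and Soat2 were at least 2-fold lower, beside 5.9%, followed by Sc5d (-0.88) and Nr1h3 (-0.76). Both counts are near the share of all genes. With a threshold of 1.5-fold, 8 were higher beside 11.8% and 4 lower beside 14.6%. The members' median was 0.21 beside -0.07, with the enzymes at 0.29. On the spike-in scale 4 members were 2-fold higher and 1 lower, and all genes split 1080 to 540 in place of 637 to 817. Each of the 4 arrays enters 3 of the 6 comparisons, so the comparisons are not independent of one another.

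Genes around the pathway were counted in the same way, without a test of how they differ from the members. Of 39 other genes, chosen for cleavage of SREBP, isoprenoid branches, acetyl-CoA supply, uptake, LXR and entry to bile acids, 2 of 32 measured were at least 2-fold higher and 3 lower on the diabetic than on the control array. From diabetic to metformin the counts were 0 and 1 of 31, from diabetic to combination 0 and 0 of 30, and from metformin to combination 2 and 1 of 33. Against control the counts were 1 and 2 of 33 for metformin and 2 and 2 of 33 for combination. Genes with only a bound are not in these counts. The shares of all genes past 2-fold are those given for each comparison above. Srebf1, which encodes the SREBP form that drives fatty acid synthesis, stood at 4.45 in control, 3.41 in diabetic, 3.70 in metformin and 3.74 in combination liver, and unlike Srebf2 it lay below control on the other arrays. Erlin1, part of an endoplasmic reticulum complex for sterol-regulated degradation, stood at 2.78, 1.58, 1.56 and 1.52, low on the diabetic and both treated arrays.

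The genes that open the way from cholesterol to bile acids include several past 2-fold. Cyp7a1, which catalyses the first and limiting step of the classic bile acid route, stood at 0.13 in control, 3.68 in diabetic, 2.90 in metformin and 4.08 in combination liver. Cyp39a1, an oxysterol hydroxylase, stood at 3.02, 4.09, 2.78 and 3.83, high on the diabetic and combination arrays. Cyp7b1, of the alternative bile acid route, stood at 4.67, 3.53, 3.12 and 3.73, and control was the highest. Ch25h, which makes 25-hydroxycholesterol, was not well above background on the diabetic array, so its step from diabetic to metformin has only a bound, of at least 2.64 in log2, and from metformin to combination it was at -1.24. Npc1l1, a carrier for sterol uptake, was above background on the metformin array alone, at least 1.52 above diabetic and at least 2.36-fold above control, with combination at least 3.01-fold lower.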

How the data were processed

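Each array's scanner file holds intensity values per spot as deposited, with 0 or 1 flags. Feature Extraction 11.5.1.1 wrote them in a red-only 1-colour mode with an mm9 grid, per the file headers; Agilent Feature Extraction 10.7 is the version in the submitters' processing notes. The authors' value table holds log2 values made in GeneSpring per the labels. Its method is not stated, its columns share the median 7.84, and it correlated at 0.999 to 1.00 with log2 scanner signals of the same array.

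Log2 processed signals, corrected for background by the software, were averaged over a probe's unflagged spots and set against the 75th percentile over 51780 common probes. Of 59305 non-control spots, 3.31% were flagged in control, 4.66% in diabetic, 5.35% in metformin and 2.18% in combination liver. Flagging differed between arrays, so a percentile over each array's own probes was kept as an alternative. Above background means that 50% or more of a probe's spots were marked so. Differences were averaged over the gene's probes above background on both arrays, and a call is a difference of at least 2-fold. For a bound, the dim side was raised to the lowest signal above background where the probe read less. RefSeq names of GRCm38.p6 covered 33767 of 56605 probes (59.7%). The 4 arrays shared 1 slide and 1 scan time, no spot was saturated, and the arrays correlated at 0.950 to 0.965 across 24363 probes above background on all.

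Alternatives were 6 of scale or value source, then normexp background correction (limma 3.58.1, offset 50, on spot medians in place of the planned spot means), outlier spots kept, 2 background filters, the brightest probe (11 in all) and a 1.5-fold threshold. Differences were computed with Python 3.11.15 and pandas 2.3.3 and tested on simulated data. The members and lists were chosen with earlier results of these data known. Every member has its values given, with the 4 highest and 4 lowest named in each comparison, as is any member past 2-fold, and of other pathway genes those past 2-fold in a comparison other than the treated arrays with control, bounds included, and Srebf1.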

Additional observations from a re-analysis of the deposited data

How the results depend on the processing

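Against the settings used for the report, 407 of 544 single-member values moved by less than the error of a difference (0.16 in log2), 137 moved by more, and no called member changed sign. Among counts and medians of members 154 of 210 stayed close. The rest are given here by comparison. The cause was not tested.

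For diabetic minus control, the 5 members at least 2-fold lower became 2 with each array's own percentile, 3 with probes above background on all arrays, quantile normalization, the authors' table or the brightest probe, 1 with normexp, 0 with spike-ins (median -0.25) and 12 at 1.5-fold. For metformin minus diabetic, the 4 higher became 7 with probes above background on all arrays or outlier spots kept, 12 with spike-ins and 14 at 1.5-fold, and the median of 0.42 became 0.64 with quantile normalization, 0.65 with the authors' table, 0.64 with outlier spots kept and 0.81 with spike-ins. For combination minus diabetic, the 5 higher became 3 with each array's own percentile (median 0.43) or normexp, and 17 higher with 1 lower at 1.5-fold.

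For combination minus metformin, the 1 lower became 2 with each array's own percentile, probes above background on all arrays, quantile normalization, spike-ins, the authors' table, outlier spots kept or 1.5-fold, where 3 were higher. The median of 0.05 became -0.24 with each array's own percentile, -0.17 with quantile normalization, -0.35 with spike-ins and -0.19 with the authors' table. For metformin minus control, the 4 higher became 11 with spike-ins and 8 at 1.5-fold, the 0 lower became 1 with median centring or outlier spots kept and 6 at 1.5-fold, and the median of 0.15 became 0.33 with each array's own percentile, 0.35 with probes above background on all arrays, 0.44 with quantile normalization, 0.79 with spike-ins and 0.45 with the authors' table. For combination minus control, the 2 higher became 1 with each array's own percentile or normexp, 4 with spike-ins and 8 at 1.5-fold, the 2 lower became 1 with probes above background on all arrays, quantile normalization, spike-ins, normexp, the authors' table or outlier spots kept and 4 at 1.5-fold, and the median of 0.21 became 0.45 with spike-ins.

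No paired analysis was possible because each group has 1 array, and no replicate could be left out. The number of arrays limits every value, differences between mice were not measured, and 17 of the 33 genes rest on 1 probe.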

Other observations

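Some members lacked a value only because the software had marked a bright spot as an outlier, and the marked values are given here as they stand. Nsdhl read 1.16 on the diabetic array, below its 2.14 on the control and 3.40 on the metformin array. Idi1 read 2.69 on the diabetic array, below its 3.26 on control. Insig1 read 0.70 on the metformin array, between 0.41 on control and 1.08 on the combination array. Abca1 read 4.40 on the control array, above the 3.90, 3.38 and 3.68 of the other arrays.

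Second probes with outlier marks read as follows. The second Msmo1 probe read 2.55 on the combination array, beside 2.34 on the metformin and 0.63 on the diabetic array. The other Fdft1 probe, marked on control and diabetic, read 3.77, 3.06, 3.98 and 4.23 from control to diabetic, metformin and combination. The second Soat2 probe, marked on all but the metformin array, read 3.43, 2.60, 2.78 and 2.63, again highest on control. The second Stard4 probe read 1.17 on control, where it was marked, beside 0.38 on the combination array.

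For Insig2 the marked probes differ from the probe in the report. Marked on all but the combination array, 1 read 3.31 in control, 3.38 in diabetic, 3.83 in metformin and 4.20 in combination liver, and the other 3.03, 2.73, 3.51 and 3.61. Both thus put metformin above control, whereas the reported probe was at -0.27. For Lss, a probe marked in combination read 0.32, 0.15, 1.02 and 2.16 from control to combination, and another, marked in control and combination, read 1.01, 0.03, 1.33 and 1.66.

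Among other genes that handle sterols, Vldlr, a lipoprotein receptor, stood at 0.75 in control, 1.60 in diabetic, 1.58 in metformin and 2.22 in combination liver, so control was the lowest. It was chosen after its values were seen. Acss2, which makes acetyl-CoA from acetate, stood at 3.27, 2.41, 2.99 and 2.74, and was likewise chosen after its values were seen.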
